A study of Mus musculus with 12 samples.

Results

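MHC class II presentation genes were followed by name in *D/F* and *T/F* murine AML treated with CCS1477, and all 8 of the 8 named genes were found among the 15651 gene identifiers of the deposited expression table. They comprise the transactivator *Ciita* and the promoter-binding factor *Rfx5*, the chains *H2-Aa*, *H2-Ab1* and *H2-Eb1*, the invariant chain *Cd74*, and the peptide exchange chains *H2-DMa* and *H2-DMb1*. All 8 transcripts were lower after CCS1477 in each of the 6 mice, and *Ciita* fell the most, by between 6.20-fold and 16.4-fold within a mouse. Of all tested genes, 43.8% had a log2 fold change under 0 over both genotypes. The transcripts for the antigen-presenting chains were near 0.51 of their DMSO level in the median mouse, while *Cd74* kept a median of 0.894 of its level.

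RNA was sequenced from c-Kit+ splenocytes, the leukemic spleen cells that carry the receptor Kit, taken from moribund mice and enriched on CD117 beads. The paper gives a C57BL6/J background for all its mice. *D/F* mice carry Dnmt3a fl/fl, Flt3 ITD/ITD and Mx1Cre, and *T/F* mice carry Tet2 fl/fl, Flt3 ITD/ITD and Mx1Cre, so both share the homozygous *Flt3* internal tandem duplication and the interferon-inducible Mx1 promoter that drives Cre. Deletion of the floxed alleles was left to background Cre activity without an inducer. The paper describes spontaneous loss of a single allele or of both, so deletion need not be complete. The age of the mice is not given in the sample records. Cells of 3 mice per genotype were divided between DMSO and CCS1477, a small-molecule inhibitor of the p300 and CBP bromodomains, and cultured for 6 hours with SCF, IL6, IL3 and serum, which gave 12 libraries in 4 groups. CCS1477 was used at 4 μM in *D/F* cells and at 2 μM in *T/F* cells, so genotype and dose cannot be told apart.

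MHC class II molecules are pairs of an alpha and a beta chain that display peptides from endosomes to CD4+ T cells. The invariant chain occupies the peptide groove until it is degraded, and the DM pair then exchanges its remnant for an antigenic peptide. Transcription of these genes depends on CIITA, which binds no DNA itself but docks on a complex of the RFX factors, CREB and NF-Y at the X and Y boxes of their promoters and recruits acetyltransferases. The genes are highly active in dendritic cells, B cells and macrophages, and some myeloid leukemias transcribe them too.

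On the GRCm38 assembly, which is the build named mm10 in the submitters' processing notes, the 5 H2 members lie in the histocompatibility region of chromosome 17. *H2-DMa* spans chr17:34119541-34139101 and *H2-DMb1* chr17:34153072-34160230, both on the plus strand. *H2-Ab1* spans chr17:34257689-34269419 and *H2-Eb1* chr17:34305867-34316674 on the plus strand, and *H2-Aa* chr17:34282744-34287823 on the minus strand. *Ciita* spans chr16:10480059-10528418 and *Rfx5* chr3:94954075-94961561, both on the plus strand. These positions come from the GENCODE vM21 annotation.

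The promoters of the genes that carried the comparison are shown because the X and Y boxes are where the RFX and NF-Y factors of the pathway bind. Each line gives the 120 bases just before the RefSeq transcription start, 5′ to 3′ on the strand of the gene, from the RefSeq table on GRCm38.p6. Capitals mark ATTGG or its other strand CCAAT, the letters of the Y box, and GCAACNGAT or its other strand, the core searched for X1. *H2-Aa* is chr17:34287824-34287943 on the minus strand, and the others are on the plus strand: *H2-Eb1* at chr17:34305747-34305866, *H2-DMb1* at chr17:34153071-34153190, its paralog *H2-DMb2* at chr17:34145129-34145248, and *Rfx5* at chr3:94953988-94954107.
H2-Aa: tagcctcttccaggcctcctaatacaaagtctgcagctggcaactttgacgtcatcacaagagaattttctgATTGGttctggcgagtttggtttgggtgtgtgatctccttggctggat
H2-Eb1: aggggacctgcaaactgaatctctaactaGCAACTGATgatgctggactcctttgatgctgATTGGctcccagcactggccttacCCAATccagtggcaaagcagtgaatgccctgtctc
H2-DMb1: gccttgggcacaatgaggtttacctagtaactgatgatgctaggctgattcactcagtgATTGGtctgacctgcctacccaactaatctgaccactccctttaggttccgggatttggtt
H2-DMb2: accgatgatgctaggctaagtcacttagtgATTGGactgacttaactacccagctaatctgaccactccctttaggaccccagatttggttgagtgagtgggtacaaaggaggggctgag
Rfx5: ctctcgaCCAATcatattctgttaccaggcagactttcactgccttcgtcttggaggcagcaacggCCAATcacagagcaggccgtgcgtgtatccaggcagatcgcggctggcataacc

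The Y box letters began 48 bases before the start in *H2-Aa*, 59 in *H2-Eb1*, 61 in *H2-DMb1* and 90 in *H2-DMb2*. *H2-Eb1* held a second match, on the other strand, 35 bases before its start, and *Rfx5* held matches 113 and 54 bases before its start, both on the other strand. The X1 core was found in *H2-Eb1*, 91 bases before the start. TGACG, the core searched for X2, began 74 bases before the start of *H2-Aa* and overlapped its other strand CGTCA at 71. Neither of the 2 windows listed for *H2-DMa*, with starts at chr17:34122832 and chr17:34125518, held Y box letters in the 120 bases before its start. Other starts within the span of *H2-DMa* were not searched, so these windows do not show that the gene lacks the box. Over all 32851 promoter windows of RefSeq, each 250 bases before to 50 bases after a start, the Y box letters stood in 37.4%, TGACG in 20.8% and the X1 core in 0.414%. Y box letters that begin between 100 and 26 bases before the start stood in 16.5%, a range chosen after the matches were seen. A match describes letters only. *Ciita*, *Cd74* and *H2-Ab1* had no entry in the table.

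Values are TPM, the share of a library's transcripts that a gene holds after correction for transcript length, so levels can be compared between genes, while a shift in the RNA content of a cell leaves no trace in them. Libraries summed to between 914204 and 931697 TPM over the listed genes, and the number of reads behind a value is unknown. *Tet2* was at 30.0 to 35.8 TPM in the *T/F* DMSO libraries and at 38.3 to 43.4 TPM in the *D/F* DMSO libraries. *Dnmt3a* did not separate the genotypes, with 29.3 to 55.7 TPM in *D/F* and 39.9 to 53.9 TPM in *T/F* under DMSO, and whole-gene values do not show which exons were read. The progenitor and granule genes *Mpo*, *Elane*, *Kit*, *Cd34*, *Cebpa* and *Flt3* were present in every library, while *Ptprc*, the pan-leukocyte marker CD45, stood at only 0.826 to 3.11 TPM with DMSO. Mouse 2 of *D/F* stood apart in its response: 1612 of 15219 genes were over 2-fold lower with CCS1477 in this mouse, against 821 to 1104 in the other 5 mice. Counts of called members, their medians and the falls of the chains are given with and without it.

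Without drug, the members spanned a steep range of levels. *Cd74* was the highest, at 265 to 2058 TPM over the 6 DMSO libraries with a mean of 1015 ± 616 TPM (SD, n = 6). *H2-Ab1* followed at 334 ± 192 TPM, *H2-Aa* at 309 ± 184 TPM and *H2-Eb1* at 256 ± 169 TPM (SD, n = 6 each). The editors and regulators were far lower, with *H2-DMa* at 61.4 ± 25.4 TPM, *H2-DMb1* at 33.5 ± 15.7 TPM, *Rfx5* at 32.4 ± 11.9 TPM and *Ciita* at 18.0 ± 12.3 TPM (SD, n = 6 each). Ranges of neighbours in this order overlapped between mice for every pair. Within a library the upper part of the order was firmer. *Cd74* exceeded *H2-Ab1* in 12 of 12 libraries, *H2-Ab1* exceeded *H2-Aa* in 11, *H2-Aa* exceeded *H2-Eb1* in 12, and *H2-Eb1* exceeded *H2-DMa* in 12. *H2-DMb1* and *Rfx5* were not ordered, with *H2-DMb1* the higher in 3 of 12 libraries, and *Rfx5* exceeded *Ciita* in 11 of 12. Together the members made up 0.0645% to 0.448% of a DMSO library and 0.0486% to 0.296% of a CCS1477 library.

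Mice differed widely before any drug. The highest DMSO library exceeded the lowest by 9.32-fold for *H2-Eb1*, 8.78-fold for *Ciita*, 7.77-fold for *Cd74*, 7.73-fold for *H2-Aa* and 6.28-fold for *H2-Ab1*. The spread was narrower for *H2-DMb1* (3.47-fold), *H2-DMa* (2.44-fold) and *Rfx5* (2.27-fold). Mouse 1 of *D/F* was the lowest and mouse 3 of *T/F* the highest for all of them except *Rfx5*. Across the 6 DMSO libraries, the log2 levels of the 7 members other than *Rfx5* rose and fell together, with pairwise Pearson r of 0.822 to 0.999 over 21 pairs, while *Rfx5* had r of 0.432 to 0.703 with them. These correlations describe 6 libraries that share a culture protocol and carry no test.

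**Figure D1:**
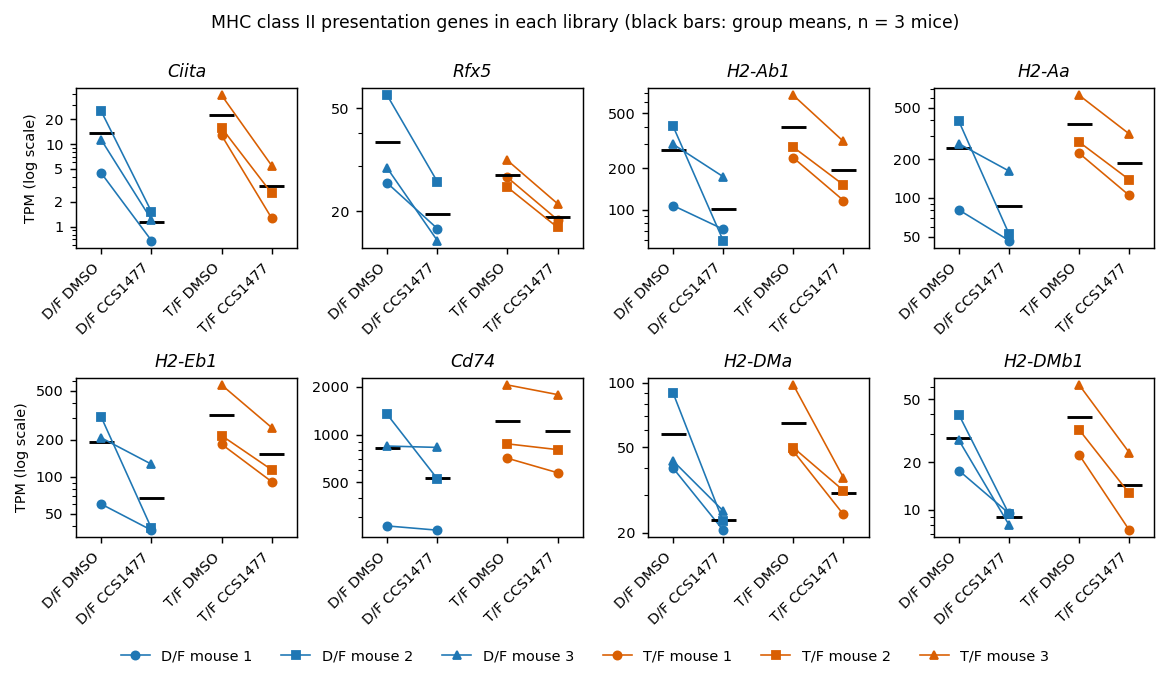
TPM of the 8 members in each library, on log axes that differ between panels. Each line joins the DMSO and the CCS1477 library of a mouse, *D/F* in blue and *T/F* in orange, and black bars mark group means of 3 mice. Every line runs down, most steeply for *Ciita*, and is nearly flat for *Cd74* except in mouse 2 of *D/F*.

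The question addressed first was how far CCS1477 lowered the regulators. *Ciita*, the transactivator on which class II transcription depends, was at 4.44, 24.9 and 11.2 TPM with DMSO in mice 1, 2 and 3 of *D/F*, and at 0.679, 1.52 and 1.21 TPM with CCS1477. In *T/F* it was at 12.7, 15.7 and 39.0 TPM with DMSO and at 1.26, 2.53 and 5.48 TPM with CCS1477. All 6 CCS1477 values lay below the DMSO values of their genotype, so the groups did not overlap. The fall within a mouse was 6.55-fold, 16.4-fold and 9.26-fold in the *D/F* mice, against 10.1-fold, 6.20-fold and 7.13-fold for *T/F*. After adding 1 TPM, which shrinks differences at low levels, log2 *Ciita* fell by 2.51 ± 0.54 in *D/F* (SE, adjusted p = 0.0359) and by 2.49 ± 0.54 in *T/F* (adjusted p = 0.0131) in limma. Over both genotypes it fell by 2.50 ± 0.40 with a limma adjusted p of 0.000402.

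*Rfx5*, the DNA-binding subunit that anchors the complex on the X box, moved less. It was at 25.8, 56.2 and 29.4 TPM with DMSO and at 17.2, 26.1 and 15.4 TPM with CCS1477 in *D/F*. In *T/F* the values were 27.1, 24.8 and 31.5 TPM with DMSO and 18.6, 17.3 and 21.4 TPM with CCS1477. The *T/F* groups did not overlap, and in *D/F* mouse 2 with CCS1477 reached the level of mouse 1 with DMSO. In limma *Rfx5* had a log2 fold change of -0.84 ± 0.34 in *D/F* (limma adjusted p = 0.158, and 0.0148 with the mouse as a block) and -0.52 ± 0.12 in *T/F* (limma adjusted p = 0.0168). Over both genotypes *Rfx5* fell by 0.68 ± 0.19, less than 2-fold (limma adjusted p = 0.0134). Up to 24.0% of the 31-base words of its annotated transcripts are shared with another gene model, *B230398E01Rik*, so reads could have been split between them.

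The 3 antigen-presenting chains changed almost in step. *H2-Ab1*, the beta chain of I-A, was at 107, 403 and 298 TPM with DMSO and at 72.3, 59.9 and 174 TPM with CCS1477 in *D/F*. In *T/F* it was at 238, 284 and 674 TPM with DMSO and at 117, 151 and 312 TPM with CCS1477. Every mouse was lower with drug, yet the groups overlapped because mice started from different levels. The fall was 1.48-fold, 6.74-fold and 1.72-fold in the *D/F* mice, against 2.04-fold, 1.87-fold and 2.16-fold for *T/F*. Mouse 2 of *D/F* therefore lost far more of this transcript than the other mice, whose falls stayed between 1.48-fold and 2.16-fold.

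*H2-Aa*, the alpha partner of *H2-Ab1*, went from 80.8, 393 and 263 TPM to 46.8, 52.6 and 162 TPM in *D/F*. In *T/F* it went from 222, 271 and 625 TPM to 105, 138 and 313 TPM. *H2-Eb1*, the beta chain of I-E, went from 60.0, 306 and 208 TPM to 36.9, 38.2 and 127 TPM in *D/F* and from 184, 217 and 559.8 TPM to 91.4, 114 and 252 TPM in *T/F*. Both repeated the pattern of *H2-Ab1*, with falls of 7.47-fold for *H2-Aa* and 8.01-fold for *H2-Eb1* in mouse 2 of *D/F* and of 1.63-fold to 2.22-fold in the other 5 mice. The transcript of *H2-Ea*, the alpha partner of *H2-Eb1*, is not listed in the table. The level of *H2-Eb1* alone therefore does not show that these cells formed I-E.

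In limma none of the 3 chains passed within a genotype, with log2 fold changes of -1.36 to -1.46 in *D/F* (adjusted p = 0.185 to 0.234) and of -1.01 to -1.02 in *T/F* (adjusted p = 0.169 to 0.185). Over both genotypes *H2-Ab1* fell by 1.18 ± 0.41 (limma adjusted p = 0.0364), while *H2-Aa* at -1.23 ± 0.47 (adjusted p = 0.0512) and *H2-Eb1* at -1.24 ± 0.48 (adjusted p = 0.0541) did not pass. With the mouse as a block in limma, all 3 passed in *T/F* (adjusted p = 0.00187 to 0.00236) and over both genotypes (adjusted p = 0.00713 to 0.00897), though not in *D/F* (adjusted p = 0.0834 to 0.0935). Without mouse 2 of *D/F*, the blocked limma log2 fold changes over both genotypes were -0.87 to -0.90 (adjusted p = 0.000153 to 0.000356), under 2-fold. For *D/F* alone without that mouse they were -0.67 to -0.74 (blocked limma adjusted p = 0.0236 to 0.0318).

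*Cd74*, whose product fills the class II groove during assembly, was hardly lower in most mice. It was at 265, 1341 and 847 TPM with DMSO and at 249, 526 and 829.7 TPM with CCS1477 in *D/F*. In *T/F* it was at 709, 874 and 2058 TPM with DMSO and at 574, 803 and 1788 TPM with CCS1477. Mouse 2 of *D/F* lost 2.55-fold, and the other mice between 1.02-fold and 1.23-fold. In limma *Cd74* had a log2 fold change of -0.49 ± 0.69 in *D/F* (limma adjusted p = 0.681), -0.21 ± 0.56 in *T/F* (adjusted p = 0.787) and -0.35 ± 0.46 over both (adjusted p = 0.576). With the mouse as a block the limma adjusted p was 0.0491 in *T/F*, 0.264 in *D/F* and 0.124 over both genotypes. Without mouse 2 the *D/F* value of *Cd74* was -0.06 (blocked limma adjusted p = 0.658).

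The peptide exchange pair fell less than the antigen-presenting chains in mouse 2 of *D/F*, by 3.98-fold for *H2-DMa* and 4.24-fold for *H2-DMb1*. In the other mice its falls were not more even than those of the chains. They were 1.59-fold to 2.71-fold for *H2-DMa* and 1.86-fold to 3.42-fold for *H2-DMb1*, against 1.48-fold to 2.22-fold for the chains. *H2-DMa*, its alpha chain, was at 40.0, 89.8 and 43.2 TPM with DMSO and at 20.5, 22.5 and 25.3 TPM with CCS1477 in *D/F*. In *T/F* it was at 48.0, 49.9 and 97.7 TPM with DMSO and at 24.3, 31.4 and 36.1 TPM with CCS1477. DMSO and CCS1477 values were separate within both genotypes, and the CCS1477 values lay in a narrower band than the DMSO values. *H2-DMa* fell by 1.01 ± 0.31 on the log2 scale in *T/F* (limma adjusted p = 0.0418) and by 1.11 ± 0.23 over both genotypes (adjusted p = 0.0022). In *D/F* its log2 fold change of -1.21 ± 0.32 had a limma adjusted p of 0.0593, and of 0.0312 with the mouse as a block. Of the 31-base words of *H2-DMa*, 9.23% are shared with *Brd2*, so reads could have been split between these genes.

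*H2-DMb1*, the beta chain of the pair, was at 17.7, 39.9 and 27.5 TPM with DMSO and at 9.50, 9.41 and 8.04 TPM with CCS1477 in *D/F*. In *T/F* it was at 22.2, 32.0 and 61.4 TPM with DMSO and at 7.44, 12.7 and 22.9 TPM with CCS1477. The *D/F* groups did not overlap, while in *T/F* mouse 3 with drug reached the level of mouse 1 without it. It fell by 1.49 ± 0.29 on the log2 scale in *D/F* (limma adjusted p = 0.0282) and by 1.43 ± 0.29 over both genotypes (adjusted p = 0.0022). In *T/F* its log2 fold change of -1.37 ± 0.50 had a limma adjusted p of 0.0717, and of 0.00182 with the mouse as a block. Of its 31-base words, 31.4% occur in other genes, mostly in its neighbour and paralog *H2-DMb2*, so the division of reads between the paralogs is uncertain.

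**Figure D2:**
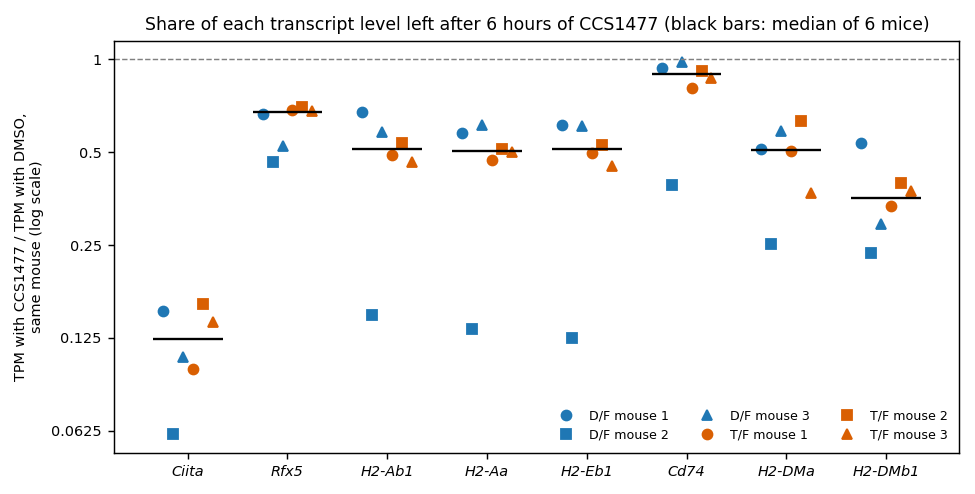
TPM with CCS1477 divided by TPM with DMSO of the same mouse, on a log axis, for the 8 members. Points are the 6 mice, black bars are medians and the dashed line marks no change. *Ciita* sits between 0.0609 and 0.161, the 3 antigen-presenting chains cluster near 0.51 apart from mouse 2 of *D/F*, and *Cd74* has a median of 0.894.

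Counted by a call of more than 2-fold at an adjusted p under 0.05 in limma, 2 of 8 members fell in *D/F*, *Ciita* and *H2-DMb1*, where 4.61% of all tested genes were called lower. In *T/F* 2 of 8 fell, *Ciita* and *H2-DMa*, against 4.70% of all tested genes. Over both genotypes 4 of 8 fell, *Ciita*, *H2-Ab1*, *H2-DMa* and *H2-DMb1*, against 5.70%. Without the demand for 2-fold, at an adjusted p under 0.05, the counts were 2, 3 and 5 of 8, against 6.51%, 17.6% and 19.6% of all tested genes called lower. None was called higher. With the mouse as a block, 3 of 8 were called in *D/F*, 6 in *T/F* and 6 over both, against 6.97%, 5.18% and 5.90% of all tested genes. With the block and no demand for 2-fold the counts were 4, 8 and 7 of 8, against 18.0%, 22.9% and 25.9%. Without mouse 2 of *D/F*, the fit over both genotypes called 2 of 8, *Ciita* and *H2-DMb1*, with and without the block. Of 15431 tested genes, 838 were called lower with the block and 830 without it. At an adjusted p under 0.05 and any fold, 7 of 8 members were lower with the block, against 3919 of the 15431 genes. Without the block 4 of 8 were, against 3521. The median log2 fold change of the members was -1.40 for *D/F*, -1.01 for *T/F* and -1.21 over both, and that of all tested genes was 0.06, 0.07 and 0.07. Without mouse 2 of *D/F* the median of the members was -0.73 for *D/F* and -0.90 over both. Of all tested genes 45.2%, 42.8% and 43.8% had a value under 0.

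Each member was lower in 6 of 6 mice. An exact two-sided permutation test, which exchanges the DMSO and CCS1477 labels within mice, gave p = 0.03125 for each member, the smallest p its 64 assignments allow. Any gene lower in 6 of 6 mice gets this p, and the share of all genes lower in 6 of 6 mice was not counted. In the blocked limma fit over both genotypes 25.9% of all tested genes were lower at an adjusted p under 0.05. Mean log2 differences within mice ranged from -2.50 ± 0.54 for *Ciita* to -0.35 ± 0.50 for *Cd74* (SD, n = 6). With mouse 2 of *D/F* left out, they ranged from -2.33 for *Ciita* to -0.15 for *Cd74*. In bulk RNA, fewer cells that transcribe a gene and less RNA per cell cannot be told apart.

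Ratios between members within a library take out the level of a mouse and show where the transcripts moved apart. The ratio of *Cd74* to *H2-Ab1* was 2.47, 3.32 and 2.84 with DMSO in the *D/F* mice, against 2.98, 3.08 and 3.05 for *T/F*. With CCS1477 it was 3.44, 8.79 and 4.78 in the *D/F* mice, against 4.92, 5.30 and 5.72 for *T/F*. Every CCS1477 value exceeded every DMSO value. The mean rise was 0.84 ± 0.31 on the log2 scale (SD, n = 6, higher in 6 of 6 mice), with an exact permutation p of 0.03125, which was 0.0625 after adjustment over the 6 ratios compared.

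*Ciita* fell further than the chain genes it serves. Its ratio to *H2-Ab1*, compared after the levels had been seen, was 0.0377 to 0.0618 with DMSO and 0.00700 to 0.0253 with CCS1477, and it was lower in 6 of 6 mice by a mean of -1.94 ± 0.43 on the log2 scale (SD, exact permutation p = 0.03125, adjusted 0.0625). The ratio of *H2-Aa* to *H2-Ab1*, the paired chains of I-A, was 0.753 to 0.974 with DMSO and 0.647 to 1.00 with CCS1477, with a mean log2 change of -0.05 ± 0.13 (SD, exact permutation p = 0.375, adjusted 0.45). *H2-DMa* to *H2-Ab1* changed by 0.05 ± 0.42 on the log2 scale (exact permutation p = 0.781) and *H2-DMb1* to *H2-DMa* by -0.38 ± 0.44 (exact permutation p = 0.125, adjusted 0.188). *H2-DMb2* to *H2-DMb1*, also compared after the levels had been seen, was lower in 6 of 6 mice by a mean of -0.64 ± 0.30 (SD, exact permutation p = 0.03125, adjusted 0.0625).

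**Figure D3:**
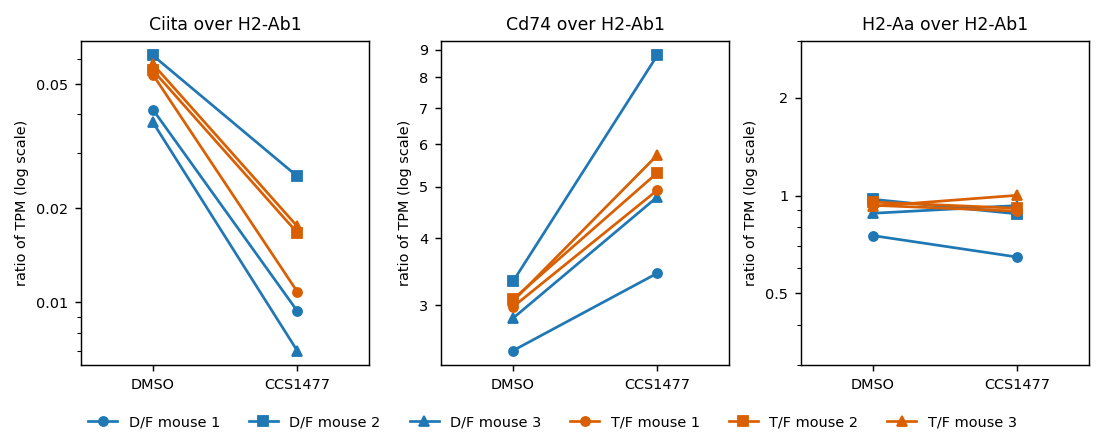
Ratios of TPM within a library, on log axes that differ between panels, with a line for each of the 6 mice from DMSO to CCS1477. *Ciita* over *H2-Ab1* falls and *Cd74* over *H2-Ab1* rises in each mouse, while *H2-Aa* over *H2-Ab1* stays between 0.647 and 1.00.

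The response was then compared between the genotypes. For every member the log2 fold change was less negative in *T/F* at 2 μM than in *D/F* at 4 μM, by 0.02 for *Ciita* to 0.44 for *H2-Aa*. In limma 0 of 8 members and 0% of 15583 genes passed this test at an adjusted p under 0.05, all members having an adjusted p of 1.00. At an unadjusted p under 0.05 stood 659 genes and 0 members, and with the mouse as a block 2293 genes and 0 members. The 95% interval of the difference ran from -1.83 to 1.86 for *Ciita* and from -1.79 to 2.65 for *H2-Eb1*, wide enough to hold a large difference either way. Without mouse 2 of *D/F* the difference turned negative for 7 of the 8 members, *Rfx5* being the exception.

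Between genotypes, 0 of 8 members differed with DMSO in limma, where 0.0328% of tested genes were called, and 0 of 8 differed with CCS1477, where 0.0329% were called. No member reached an unadjusted p under 0.05 in either comparison, against 939 tested genes with DMSO and 1643 with CCS1477. Log2 differences of *T/F* minus *D/F* ran from -0.33 for *Rfx5* to 0.84 for *H2-Eb1* with DMSO (limma adjusted p = 0.944 to 0.970). With CCS1477 the largest was 1.28 for *H2-Eb1* (limma adjusted p = 0.500).

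At an adjusted p under 0.05 and any fold, the other pathway genes went in both directions. Over both genotypes their shares were near those of all tested genes in the fit without pairing. Every call above 2-fold was lower. Of 34 further class II pathway genes 33 are in the table, and over both genotypes 3 were called lower above 2-fold, against 5.70% of all tested genes, and 0 higher. Regardless of fold, at an adjusted p under 0.05, 7 of 33 were lower, against 19.6% of all tested genes, and 10 were higher, against 25.8%. With the mouse as a block 13 of 33 were lower and 13 higher, against 25.9% and 34.5% of all tested genes, and 5 were called lower above 2-fold, against 5.90%. Their median log2 fold change was -0.0098. Within genotypes 3 of 33 were called lower above 2-fold in *D/F*, against 4.61% of all tested genes, and 4 of 33 in *T/F*, against 4.70%.

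Among the other class II chains, 1 of 4 was called lower over both genotypes, and 2 with the mouse as a block. Of all tested genes 5.70% and 5.90% were. *H2-DMb2*, the second DM beta chain, was at 9.50 to 41.4 TPM with DMSO (median 17.5) and at 3.09 to 6.95 TPM with CCS1477 (median 4.22). Its lowest DMSO library was above its highest CCS1477 library, and it fell by 1.92 ± 0.24 on the log2 scale (limma adjusted p = 9.11e-05 over both). *H2-Ob*, the beta chain of the DO pair that restrains DM, fell by 1.19 ± 0.32 in *T/F* (limma adjusted p = 0.0282) and had -1.10 ± 0.43 over both (adjusted p = 0.0539, and 0.000685 with the mouse as a block).

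Most partners of *Ciita* and *Rfx5* on the promoter were higher with CCS1477. Of 6 promoter factors 0 were lower and 4 were higher at an adjusted p under 0.05 over both genotypes, none above 2-fold, where 25.8% of all tested genes were called higher at any fold. *Nfyc*, a subunit of NF-Y, went from 57.5 to 71.9 TPM with DMSO to 81.5 to 96.9 TPM with CCS1477 and rose by 0.45 ± 0.06 (limma adjusted p = 0.000195). *Nfya*, the subunit that contacts the Y box, had a log2 fold change of 0.33 ± 0.13 (limma adjusted p = 0.0656, and 0.00128 with the mouse as a block), and *Creb1*, which encodes CREB, had -0.02 ± 0.09 (adjusted p = 0.864) and was lower in 4 of 6 mice. *Rfxap* and *Rfxank*, the partners of *Rfx5* in the RFX complex, were named after their values were seen, and both were higher in 6 of 6 mice. *Rfxap* rose by 0.47 ± 0.08 (limma adjusted p = 0.000496) and *Rfxank* by 0.48 ± 0.10 (adjusted p = 0.00275), while *Rfx5* fell. All 3 coactivators rose. *Ep300* and *Crebbp*, which encode the targets of the compound, went from a range of 53.5 to 64.2 TPM to one of 94.4 to 112 TPM and from 46.9 to 61.6 TPM to 78.2 to 112 TPM. They rose by 0.75 ± 0.07 and by 0.79 ± 0.10 over both genotypes, with adjusted p of 8.32e-06 and 7.54e-05 in limma.

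Of 7 genes of interferon-gamma signaling and *Ciita* induction, 1 was called lower above 2-fold over both genotypes, and 3 were lower and 1 higher with any fold (4 and 3 with the mouse as a block). Of all tested genes 5.70% were called lower above 2-fold. With any fold 19.6% were lower and 25.8% higher (25.9% and 34.5% with the block). *Irf8*, an interferon regulatory factor of dendritic and monocytic cells, was at 36.1 to 108 TPM with DMSO and at 18.8 to 43.8 TPM with CCS1477 and fell by 1.22 ± 0.22 (limma adjusted p = 0.000875). *Spi1*, which encodes PU.1, fell by 1.38 ± 0.22 in *D/F* (limma adjusted p = 0.0168) and by 0.42 ± 0.09 in *T/F* (adjusted p = 0.0145). *Jak1*, the kinase of many cytokine receptors, rose by 0.52 ± 0.15 over both genotypes (limma adjusted p = 0.0142). *Ifngr1*, a chain of the interferon-gamma receptor that was named after its values were seen, fell by 0.95 ± 0.11 (limma adjusted p = 4.57e-05).

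The endosomal processing genes were not called above 2-fold, with 1 of 7 lower (2 with the mouse as a block) and 1 higher at any fold over both genotypes. Of all tested genes 19.6% were lower at any fold (25.9% with the block) and 25.8% higher. *Ctsd*, the aspartic protease cathepsin D, had a log2 fold change of -0.26 ± 0.13 (limma adjusted p = 0.124, and 0.0115 with the mouse as a block), and *Ifi30*, the lysosomal thiol reductase, -0.53 ± 0.28 (adjusted p = 0.143). Of 6 genes for turnover and costimulation, 1 fell above 2-fold and 1 rose with any fold, against 5.70% and 25.8% of all tested genes. *March1*, the ubiquitin ligase that removes class II from the cell surface, was at 10.3 to 32.6 TPM with DMSO and at 1.86 to 10.6 TPM with CCS1477. It fell by 1.65 ± 0.21 over both genotypes (limma adjusted p = 8.32e-05), and its relative *March8* rose by 0.37 ± 0.11 (adjusted p = 0.014). *Cd86*, a ligand that costimulates T cells, had -0.43 ± 0.34 (limma adjusted p = 0.339, and 0.0374 with the mouse as a block). With the block 4 of these 6 genes were lower at any fold, 2 of them above 2-fold, against 25.9% and 5.90% of all tested genes.

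**Figure D4:**
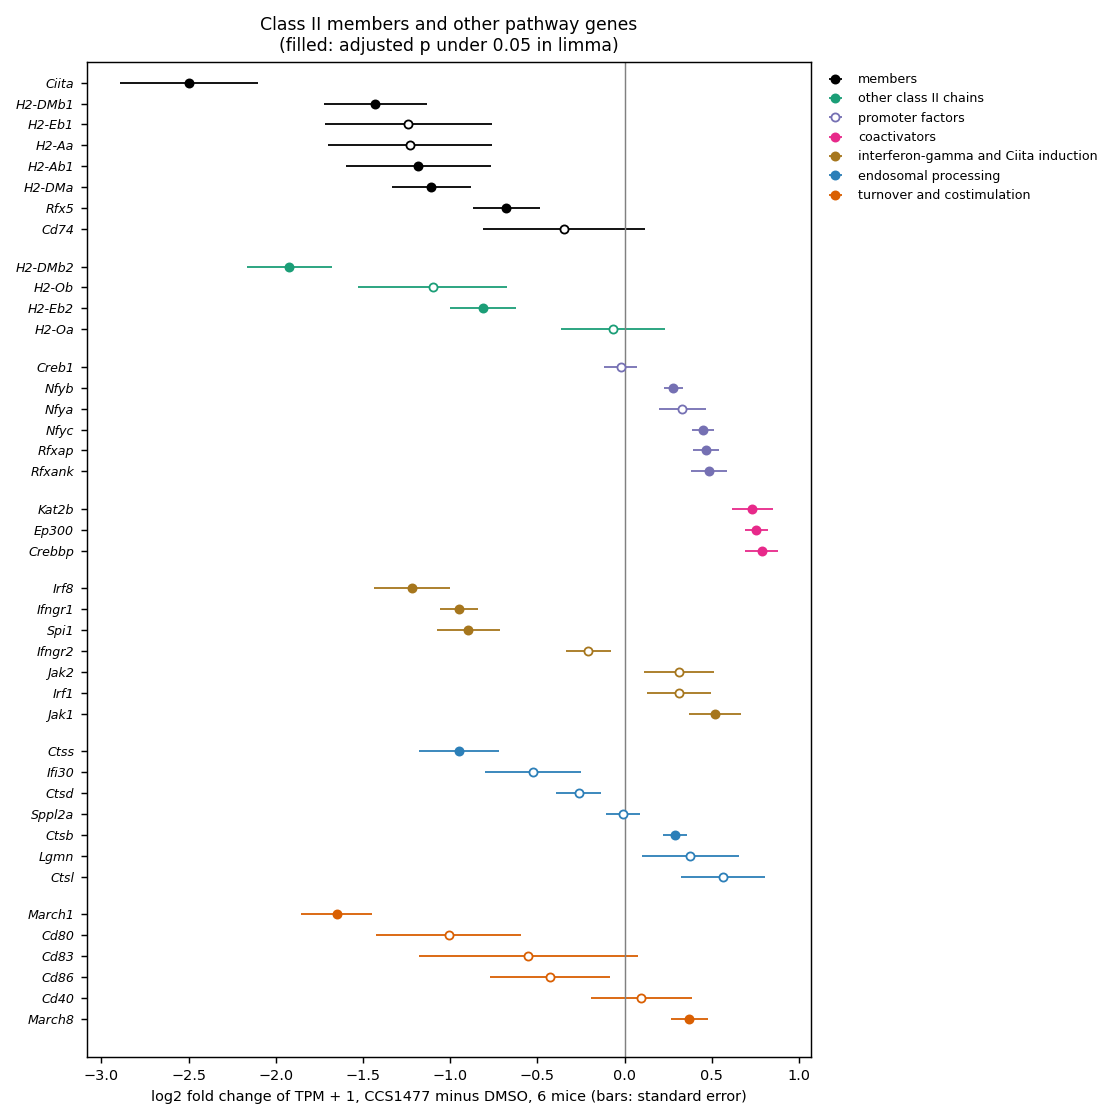
Log2 fold change of TPM + 1, CCS1477 minus DMSO over both genotypes, for the 8 members and the 33 other pathway genes, grouped by role. Bars are standard errors of limma and filled points have an adjusted p under 0.05. *Ciita* lies furthest to the left at -2.50, and the coactivators and most promoter factors lie to the right of 0.

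Markers of the cell types that carry class II were read beside the members, and part of them fell with the drug. The 7 listed of 8 conventional dendritic cell markers summed to 29.2 to 164 TPM with DMSO and 18.9 to 61.4 TPM with CCS1477 in *D/F*, and to 48.3 to 199.6 TPM and 28.2 to 142 TPM in *T/F*. *Ccr7* was the largest part of this sum in every library, with 92.6 of the 164 TPM in mouse 2 of *D/F* with DMSO. Over both genotypes 3 of 7 were called lower in limma, and 4 of 7 at an adjusted p under 0.05. Of all tested genes 5.70% were called lower, and 19.6% were lower at an adjusted p under 0.05. *Itgax*, which encodes CD11c, fell by 1.80 ± 0.47 on the log2 scale (limma adjusted p = 0.00848), by 21.1-fold in mouse 2 of *D/F* and by 2.09-fold to 4.85-fold in the other mice. *Zbtb46*, a transcription factor of conventional dendritic cells, had -0.24 ± 0.33 (limma adjusted p = 0.589), *Batf3* -1.26 ± 0.57 (adjusted p = 0.0937) and *Ccr7*, a chemokine receptor, -0.54 ± 0.67 (adjusted p = 0.547). Blocked limma gave *Batf3* an adjusted p of 0.00998 and *Ccr7* one of 0.00941.

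The 6 listed of 9 macrophage markers summed to 26.2 to 33.7 TPM with DMSO and 7.63 to 14.1 TPM with CCS1477 in *D/F*, and to 27.9 to 54.9 TPM and at most 20.0 TPM in *T/F*. Of these, 4 of 6 were called lower over both genotypes, against 5.70% of all tested genes. Among them was *Adgre1*, which encodes F4/80, with a fall of 1.24 ± 0.15 (limma adjusted p = 7.87e-05). *Spic*, a factor of splenic macrophages, had 0.03 ± 0.23 (adjusted p = 0.922). For B cells, *Cd79a*, *Ms4a1*, *Blk* and *Fcrla* are not listed in the table, in which the highest value of each gene is at least 2.00 TPM. The other 5 of 9 B cell markers summed to 22.3 to 42.0 TPM with DMSO and 13.2 to 24.1 TPM with CCS1477 in *D/F*. In *T/F* they summed to 29.2 to 31.7 TPM and 21.8 to 24.9 TPM. Of them 0 of 5 were called, with 5.70% of all tested genes called lower. *Cd79b* among them fell by 0.84 ± 0.24 and *Fcer2a* by 0.44 ± 0.13 (limma adjusted p = 0.0148 and 0.0186). Beside the same share, 0 of the 3 listed of 6 plasmacytoid markers were called, with *Cox6a2* falling by 0.79 ± 0.22 (limma adjusted p = 0.0124). Of the 4 listed of 7 T cell markers 0 were called too, with *Cd3d* at -0.19 ± 0.15 (adjusted p = 0.347) and *Lck* at -0.72 ± 0.31 (adjusted p = 0.0761).

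Most leukemic progenitor genes were lower as well. Their sum, most of it from *Mpo* and *Elane*, went from 2397 to 6468 TPM in sum with DMSO to 665 to 2828 TPM with CCS1477 in *D/F* and from 2235 to 3501 TPM to 967 to 1751 TPM in *T/F*. Over both genotypes 5 of 7 were called lower in limma, against 5.70% of all tested genes. *Kit* fell by 1.10 ± 0.29, *Cd34* by 1.34 ± 0.34, *Mpo* by 1.36 ± 0.43, *Cebpa* by 1.20 ± 0.07 and *Flt3* by 1.40 ± 0.40 on the log2 scale. *Elane* was at -1.07 ± 0.47 (limma adjusted p = 0.0831, and 1.61e-05 with the mouse as a block). *Ptprc* had -0.10 ± 0.19 over both genotypes (limma adjusted p = 0.688), and its CCS1477 level was 1.91, 1.07 and 2.05 of the DMSO level in the *D/F* mice and 0.466 to 0.617 of it in *T/F*. The part of any of these cell types in the change of the class II genes was not tested.

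Across the 6 DMSO libraries the levels of the members ran with those of the 4 conventional dendritic cell markers that averaged 5 TPM or more. With the mean log2 level of the members, Pearson r over 6 libraries was 0.974 for *Itgax*, 0.946 for *Zbtb46*, 0.906 for *Ccr7* and 0.867 for *Batf3*. *Cox6a2*, the only plasmacytoid marker above that mean, had r of -0.761. Listed markers below it were given no r, and some ran otherwise. With DMSO, plasmacytoid *Spib* was highest in mouse 3 of *T/F* and next in mouse 2 of *D/F*, like *Ciita*. Among the *D/F* mice, dendritic *Clec10a* was highest in mouse 1, while *Clec9a* and *Xcr1* were lowest there, like the class II chains. The r values therefore do not describe whole marker lists. Of the leukemic progenitor list, *Flt3* had 0.975, *Cd34* 0.645, *Kit* 0.564 and *Cebpa* -0.484. The granule genes of that list ran opposite, with r of -0.941 for *Mpo* and -0.922 for *Elane*. The B cell markers had 0.651 for *Cd79b* and -0.012 for *Fcer2a*. For the macrophage markers r was 0.735 for *Spic* and 0.471 for *Adgre1*, and for the T cell markers 0.145 for *Cd3d* and 0.166 for *Lck*. Of the macrophage markers below 5 TPM, *Timd4* and *C1qb* were lowest in mouse 1 of *D/F* and highest in mouse 3 of *T/F* with DMSO. *Vcam1* was highest in the former and lowest in the latter. The median r was 0.267 over the 11596 genes that averaged 5 TPM or more. The genes most like the members by this measure were *Urgcp* (r = 0.993), *Ptger4* (0.993), *2310022A10Rik* (0.991), *Csk* (0.991) and *2010111I01Rik* (0.989). Over all 12 libraries, where the drug adds to the pattern, they were *Jaml* (r = 0.989), *Plekho1* (0.974), *Il1b* (0.968), *B3gnt5* (0.967) and *Itgax* (0.967), and *H2-DMb2* had 0.904. *Jaml*, which encodes a junctional adhesion molecule of leukocytes, was at 2.26 to 25.2 TPM with DMSO and at 0.267 to 8.52 TPM with CCS1477. These values describe likeness over few libraries and carry no test.

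**Figure D5:**
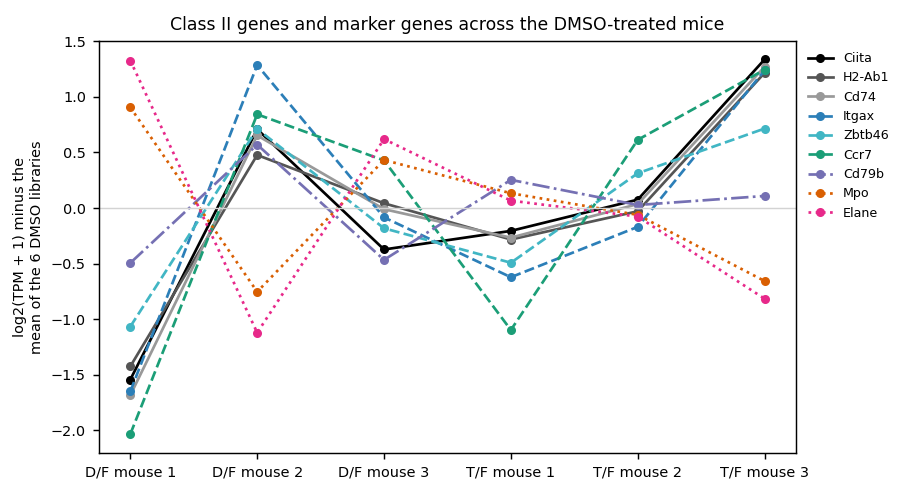
Log2(TPM + 1) in the DMSO library of each of the 6 mice, less the mean of the 6, for 3 members (solid lines), dendritic cell genes (dashed), the B cell gene *Cd79b* (dash-dot) and granule genes (dotted), chosen for drawing after their values were seen. The class II and dendritic cell lines are lowest in mouse 1 of *D/F* and high in mouse 3 of *T/F*, and the granule genes run opposite.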

How the data were processed

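RNA-seq was analysed from 12 libraries of *D/F* and *T/F* c-Kit+ splenocytes, 3 mice per genotype, each treated with CCS1477 or DMSO. The authors deposited TPM per gene on a linear scale, named as kallisto output with mm10 in the submitters' processing notes, and their methods name AltAnalyze. Both ribosomal depletion and an mRNA kit are named in the labels. The annotation is not given in the sources used here. TPM holds no read numbers, so depth is unknown, and the spread between 3 mice sets the precision. Genes without 2.00 TPM in any library are absent from the table.

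Genes averaging 1 TPM or more in a compared group were tested without pairing on log2(TPM + 1), using limma 3.58.1 (R 4.3.3), with two-sided p-values adjusted by Benjamini-Hochberg over all tested genes. A call needed more than 2-fold and an adjusted p under 0.05, and differences in response between genotypes needed the adjusted p alone. Labels tie the DMSO and CCS1477 cells to a mouse. Deviations from group means correlated at 0.354 to 0.669 within a mouse and at most 0.141 between mice, so the mouse pairs the samples, and the fit with the mouse as a block is given where it changes a printed call over both genotypes, or a call or count of the members. Changes of each member and ratio within mice were also tested by exact permutation. The limma fits were first tested on simulated data, and the permutation test on set cases with a known p.

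Named genes were the 8 members, pathway genes called in a comparison, the 2 most abundant of each pathway list, the 5 genes most like the members over 12 and over 6 libraries, and cell type markers with a mean of at least 5 TPM. Members and lists were chosen with earlier results of these data known. A pathway gene and a B cell marker of those lists are not reported here and were left out of the list counts. Symbols and positions came from GENCODE vM21, and promoters from RefSeq. The alternatives are given in the closing section.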

Additional observations from a re-analysis of the deposited data

How the results depend on the processing

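The counts of called members rested on the model and on single mice. In *T/F* 6 members were called with the mouse as a block, against 5.18% of all tested genes called lower. Leaving out a *T/F* mouse gave 0 (without mouse 2) to 3, with 1 without mouse 1. Of all tested genes, 578 of 15253 were called lower without mouse 2, 653 of 15254 without mouse 1 and 683 of 15189 without mouse 3. In *D/F* the range was 0 (without mouse 1 or mouse 3) to 2. Without mouse 1 or mouse 3 no tested gene at all was called, so the 0 is not particular to the members. Without mouse 2, which gave 2, 840 of 15191 genes were called lower. Over both genotypes the range was 2 (without mouse 2 of *D/F*, with 830 of 15431 genes called lower) to 6. The 6 came without mouse 1 of *D/F*, with 884 of 15622 genes called lower. The block without mouse 2 of *D/F*, added after seeing the data, gave 2, with 838 of 15431 genes called lower. Among the members the block changed no call other than those given in the report. The other 68 recomputed counts stayed within 1.5 times. They include every recomputed count for the differences between genotypes, where 0 members were called in all settings. Leaving out a mouse moved the *T/F* minus *D/F* difference in log2 response to between -0.41 and 0.42 for *Ciita*, -0.15 and 0.51 for *Cd74*, -0.28 and 0.81 for *H2-Aa*, -0.34 and 0.75 for *H2-Ab1*, -0.33 and 0.81 for *H2-Eb1*, -0.16 and 0.43 for *H2-DMa* and -0.13 and 0.44 for *H2-DMb1*. For *Ciita* it was -0.030 with libraries rescaled to their median gene. The genotype difference with DMSO ranged from -0.14 to 0.56 for *H2-DMa*, from -0.012 to 0.70 for *H2-DMb1* and from -0.54 to 0.0055 for *Rfx5*. With CCS1477 it ranged from -0.15 to 0.21 for *Rfx5*, with 0.012 after rescaling. The log2 change of the *H2-DMa* to *H2-Ab1* ratio ranged from -0.087 to 0.14. None of these reversed differences passed a test, and the cause was not tested. With 5 mice the exact permutation test cannot go below p = 0.0625, so no single member can pass there. Of all values for single genes and ratios, 537 kept their direction and side of the threshold, 81 no longer passed, 23 newly passed and 18 changed sign.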
